A study of Mus musculus with 6 samples.

Results

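The genes described here encode 2 chromatin assemblies, the HIRA histone chaperone (Hira, Cabin1, Ubn1, Ubn2 and Asf1a) and the HUSH silencing complex with its methyltransferase (Fam208a, Fam208b, Mphosph8, Pphln1 and Setdb1). They are 10 of the 55421 genes counted, and each of the 10 was among the 13849 genes with enough reads to be compared between genotypes. The 10 genes were chosen by function together with their fold changes between the genotypes in these same libraries, so those differences are given as values and nothing is read from their tests. RNA was taken from splenic monocytes of C57BL/6 mice, 3 of genotype IL-4Rα+/+ and 3 of genotype IL-4Rα-/-, with 1 library per mouse. IL-4Rα is the receptor chain through which IL-4 and IL-13 signal, and its gene is disrupted in the germ line of IL-4Rα-/- animals, in all their cells and not only in monocytes. No treatment was given, the monocytes were enriched by removing other cells with antibodies and magnetic beads, and the mice were between 8 and 16 weeks old, an age range given for animals in general and not for these 6 mice.

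HIRA places the histone variant H3.3 into chromatin outside of DNA replication, at active genes and regulatory regions. HIRA itself is the scaffold, ubinuclein 1 or its paralog ubinuclein 2 (Ubn1, Ubn2) recognises H3.3, CABIN1 is the other stable subunit, and ASF1A hands over the H3-H4 dimer. HUSH keeps transposable elements and newly integrated DNA silent: TASOR (Fam208a) is its scaffold, MPP8 (Mphosph8) reads methylated lysine 9 of histone H3, periphilin (Pphln1) binds RNA, and SETDB1 is the methyltransferase that works with it. Fam208b encodes TASOR2, a paralog of TASOR.

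The start regions of the 2 paralog pairs are shown because Ubn2 and Fam208b were the genes whose genotypes did not overlap, while their paralogs Ubn1 and Fam208a overlapped. Each sequence is the RefSeq window of GRCm38.p6 from 250 bases before to 50 bases after the start of the gene, 5′ to 3′ on the strand of the gene. Ubn2 lies at chr6:38433675-38433974 on the + strand, Ubn1 at chr16:5049807-5050106 on the + strand, Fam208b at chr13:3611059-3611358 on the - strand and Fam208a at chr14:27428584-27428883 on the + strand. Capitals mark matches, on either strand, to CCAAT, to the cAMP response element TGACGTCA (CRE), to the NRF1 motif (GCGCA followed directly by TGCGC) and to the YY1 motif (AAGATGG followed directly by CGG).
Ubn2: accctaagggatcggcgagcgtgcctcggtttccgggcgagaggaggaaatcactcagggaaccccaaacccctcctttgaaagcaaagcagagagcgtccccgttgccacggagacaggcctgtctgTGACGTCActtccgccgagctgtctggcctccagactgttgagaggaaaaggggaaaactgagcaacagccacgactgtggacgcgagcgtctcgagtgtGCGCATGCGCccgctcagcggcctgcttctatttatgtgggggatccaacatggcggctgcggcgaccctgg
Ubn1: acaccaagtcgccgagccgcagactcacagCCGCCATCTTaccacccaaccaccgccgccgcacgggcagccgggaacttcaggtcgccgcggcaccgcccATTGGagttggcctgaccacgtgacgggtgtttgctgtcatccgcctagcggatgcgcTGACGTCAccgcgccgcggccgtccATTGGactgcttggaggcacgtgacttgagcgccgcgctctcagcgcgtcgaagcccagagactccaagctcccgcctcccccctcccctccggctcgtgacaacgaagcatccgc
Fam208b: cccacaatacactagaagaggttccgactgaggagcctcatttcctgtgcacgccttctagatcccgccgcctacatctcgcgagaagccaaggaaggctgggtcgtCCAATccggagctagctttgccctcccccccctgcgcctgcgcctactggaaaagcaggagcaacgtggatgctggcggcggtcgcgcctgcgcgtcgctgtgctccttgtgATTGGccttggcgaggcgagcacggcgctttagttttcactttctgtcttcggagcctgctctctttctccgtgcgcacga
Fam208a: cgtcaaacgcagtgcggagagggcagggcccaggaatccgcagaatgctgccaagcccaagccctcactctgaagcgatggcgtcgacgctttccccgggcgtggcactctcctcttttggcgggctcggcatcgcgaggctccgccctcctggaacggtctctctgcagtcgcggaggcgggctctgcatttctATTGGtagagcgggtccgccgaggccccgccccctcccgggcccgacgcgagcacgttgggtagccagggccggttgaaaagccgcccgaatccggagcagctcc

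Both ubinuclein windows held the CRE letters, at -122 in Ubn2 and at -91 in Ubn1 relative to the start, against 1.79% of 32851 mouse promoter windows of the same length. Ubn2 in addition held the NRF1 letters at -22, found in 0.971% of all windows, and Ubn1 held the YY1 letters at -220, found in 0.852%. The TASOR pair shared CCAAT, with 2 matches in Fam208b and 1 in Fam208a, a motif present in 37.4% of all windows and in 7 of the 10 genes. The STAT6 letters, TTC and GAA with 4 bases between them, the form bound by the factor that IL-4 activates, were found in 6.95% of all windows and in 1 of the 10 genes, Mphosph8. The related spacing with 3 bases between them (TTCNNNGAA) was in none of the 10 and in 8.30% of all windows. The ETS letters CCGGAAG were in Hira, Pphln1 and Setdb1 and in 8.86% of all windows, GGGCGG was in 7 of the 10 and in 35.7%, and TATAAA was in none of the 10 and in 13.6%. These windows were rich in CpG, with 15 to 53 CpG in the 10 genes against a median of 7 over all windows. A match describes letters in the window only, and the windows of all genes include many that are poor in CpG.

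The libraries held 26807281 to 29033297 reads on genes, so that 1 read was worth 0.0338 to 0.0378 counts per 1000000 (CPM), and the weakest gene of the 10 still had 269 reads in its lowest library. Il4ra, the targeted gene, was counted at 137, 128 and 177 CPM in IL-4Rα+/+ mice and at 27.9, 79.4 and 31.8 CPM in IL-4Rα-/- mice, so replicate 2 of IL-4Rα-/- kept more Il4ra reads than the other two, and counts per gene do not show which exons those reads came from. All 8 monocyte markers were detected, with a summed level of 7392 to 8481 CPM in IL-4Rα+/+ and 7412 to 8545 CPM in IL-4Rα-/- libraries. Summed markers of erythroid cells (8 of 9 genes matched, 56.5 to 129 against 167 to 419 CPM), of basophils, mast cells and eosinophils (8 genes, 10.4 to 31.9 against 43.6 to 73.9 CPM) and of red pulp macrophages (7 genes, 2756 to 3249 against 3666 to 5593 CPM) were higher in every IL-4Rα-/- library, and their part in the values below was not tested. Summed neutrophil markers (53.1 to 252 against 116 to 627 CPM), B and plasma cell markers (583 to 900 against 703 to 769 CPM), T and NK cell markers (41.7 to 102 against 38.3 to 88.7 CPM), dendritic cell markers (395 to 712 against 330 to 531 CPM) and platelet markers (2.93 to 3.78 against 3.40 to 6.96 CPM, Gp1bb at 0) overlapped. Pancreatic acinar markers overlapped as well but reached 230 CPM in replicate 2 of IL-4Rα-/-. Sums that overlap do not show equal levels of each gene. By fitted log2 fold change, 8 of 8 neutrophil genes tested were higher in IL-4Rα-/- mice (median 1.90). So were 5 of 6 B and plasma cell genes (median 0.68), 3 of 3 platelet genes and 6 of 6 acinar genes. Of T and NK cell genes 3 of 7 were higher, and of dendritic cell genes 2 of 6. Xist was high in replicate 1 of IL-4Rα+/+ (553 CPM) and in replicate 3 of IL-4Rα-/- (457 CPM), and at most 3.73 CPM in the other 4 libraries, which carried the Y-linked transcripts. In bulk RNA, fewer cells of a type and less RNA per cell cannot be told apart.

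Among the HIRA genes, Ubn2 (ENSMUSG00000038538, GRCm38 chr6:38433950-38524825, + strand) stood apart. Ubn2 was counted at 132, 136 and 129 CPM in the 3 IL-4Rα+/+ libraries and at 97.1, 102 and 101 CPM in the 3 IL-4Rα-/- libraries. Every IL-4Rα-/- library was below every IL-4Rα+/+ library, and the gap between the groups was wider than the range within either. Group means were 132 ± 3.71 CPM and 99.9 ± 2.41 CPM (SD, n = 3 each), a log2 fold change of -0.40 (SE 0.066) or a difference of -24.4%. The libraries of 1 genotype differed little in Ubn2: its SD within genotypes was 0.038 on the log2 scale, at the 3.84th percentile of genes of like level, whose median SD was 0.115. Ubn2 was chosen with its difference in these libraries known, which can favour a small SD, so this rank is a description only. Leaving out any 1 library moved the log2 fold change between -0.42 and -0.38, and it was -0.42 over the 4 libraries low in Xist. It was -0.23 (SE 0.088) once each library was corrected for a trend with transcript length. The 59 genes of like length to Ubn2 had a median of -0.26. Whether the trend, fitted over all genes, takes off the whole difference at this length was not tested.

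The paralog Ubn1 was counted at 113, 108 and 123 CPM in IL-4Rα+/+ and at 101, 111 and 104 CPM in IL-4Rα-/- libraries. Replicate 2 of IL-4Rα-/- lay above replicate 2 of IL-4Rα+/+, so the groups overlapped, and the log2 fold change was -0.12 (SE 0.081). The ratio of Ubn2 to Ubn1 reads, taken within each library, was 1.17, 1.26 and 1.05 in IL-4Rα+/+ and 0.957, 0.912 and 0.969 in IL-4Rα-/- mice. Reads on Ubn2 thus outnumbered those on Ubn1 in each IL-4Rα+/+ library and were fewer in each IL-4Rα-/- library. The longest transcripts are 14644 and 6455 bases, so the gene with more reads need not have more transcripts. Genes of like length had a median log2 fold change of -0.26 for Ubn2 and -0.096 for Ubn1. The part of length in this ratio was not tested. The ratio of Fam208b to Fam208a reads overlapped between the genotypes, at 0.730, 0.641 and 0.954 in IL-4Rα+/+ and 0.635, 0.771 and 0.645 in IL-4Rα-/- mice.

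The other HIRA genes overlapped between the genotypes. Cabin1 was counted at 89.4, 111 and 121 CPM in IL-4Rα+/+ and at 96.8, 104 and 109 CPM in IL-4Rα-/- libraries, with a log2 fold change of -0.053 (SE 0.12). Its sign rested on single libraries, at -0.17 without replicate 1 and 0.046 without replicate 3 of IL-4Rα+/+, and over the 4 libraries low in Xist it was -0.21. Hira was counted at 12.8, 11.2 and 12.6 CPM in IL-4Rα+/+ and at 13.5, 12.4 and 12.0 CPM in IL-4Rα-/- libraries, a log2 fold change of 0.050 (SE 0.12). The scaffold gene was thus among the lowest of the 10 in reads, but 44.7% of its exonic bases are shared with genes on the same strand in GENCODE vM21. The authors counted with another GENCODE release, and where that release has the same overlap, shared reads are ambiguous and the level of Hira is a lower bound. Asf1a was counted at 9.45, 11.3 and 11.1 CPM in IL-4Rα+/+ and at 11.2, 11.3 and 12.99 CPM in IL-4Rα-/- libraries. Its log2 fold change was 0.16 (SE 0.13) over the 6 libraries and 0.0052 over the 4 libraries low in Xist.

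Among the HUSH genes, the TASOR paralog Fam208b (ENSMUSG00000033799, GRCm38 chr13:3566035-3611108, - strand) was the one without overlap. Fam208b was counted at 56.3, 57.4 and 52.5 CPM in IL-4Rα+/+ and at 39.0, 39.5 and 44.0 CPM in IL-4Rα-/- libraries. Each IL-4Rα-/- library was below each IL-4Rα+/+ library, and replicate 3 of both genotypes lay closest to the other group. Means were 55.4 ± 2.57 and 40.8 ± 2.77 CPM (SD, n = 3 each), a log2 fold change of -0.44 (SE 0.079) or a difference of -26.3%, and the log2 fold change ran from -0.50 to -0.41 when 1 library was left out.

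Fam208a, which encodes TASOR itself, varied widely between mice of 1 genotype. Its libraries held 77.1, 89.6 and 55.0 CPM in IL-4Rα+/+ and 61.4, 51.2 and 68.3 CPM in IL-4Rα-/- mice. Replicate 3 of IL-4Rα+/+ lay below 2 of the 3 IL-4Rα-/- libraries. The SD within genotypes was 0.29 on the log2 scale, at the 88.0th percentile of genes of like level, and the log2 fold change of -0.29 (SE 0.19) moved to -0.47 without replicate 3 and to -0.13 without replicate 2 of IL-4Rα+/+.

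Mphosph8, Pphln1 and Setdb1 were close between the genotypes. Mphosph8 was counted at 37.3, 34.7 and 36.6 CPM against 39.3, 32.7 and 36.7 CPM, with a log2 fold change of 0.0031 (SE 0.089). Pphln1 was counted at 49.0, 45.2 and 49.6 CPM against 47.7, 50.8 and 45.9 CPM, with a log2 fold change of 0.0058 (SE 0.075). Setdb1 was counted at 68.4, 64.1 and 77.8 CPM against 72.4, 80.2 and 69.3 CPM, with a log2 fold change of 0.078 (SE 0.10). In all 3 genes the ranges of the genotypes overlapped, so that the reader and RNA-binding subunits and the methyltransferase lay within the spread between mice.

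**Figure D1:**
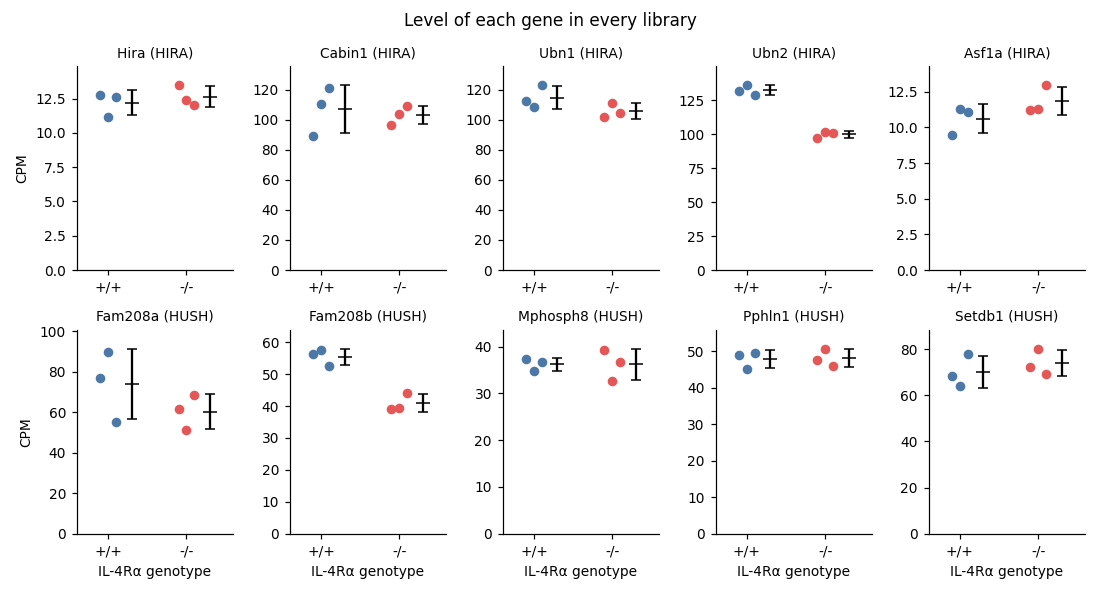
Level of each gene in CPM (axis from 0) in the 3 IL-4Rα+/+ (blue) and 3 IL-4Rα-/- (red) libraries, in replicate order, with the group mean ± SD in black. The genotypes are separate in Ubn2 and Fam208b and overlap in the other 8 genes, and Fam208a has the widest scatter of the 10 on the log2 scale.

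Of the 10 genes, 2 did not overlap and were lower in IL-4Rα-/- mice, beside 7.87% of all genes tested, and 0 did not overlap and were higher, beside 7.63%. By the fitted log2 fold change 5 were lower, beside 48.5% of all genes, and 5 were higher. The median log2 fold change was -0.053 over the 5 HIRA genes, 0.0031 over the 5 HUSH genes and 0.0084 over all genes tested. With edgeR at an adjusted p under 0.15, 0 of the 13849 genes were called, and 1120 genes (8.09%) had an unadjusted p under 0.05, while DESeq2 called 80 of 14003 (0.571%). Ubn2 and Fam208b were among the genes at unadjusted p under 0.05 and among those that DESeq2 called, which follows from how the genes were chosen and adds nothing to the values above.

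The genes with the lowest log2 fold changes were also those with long transcripts. The longest annotated transcript is 14644 bases in Ubn2, 8338 in Fam208b, 7590 in Fam208a, 7417 in Cabin1, 6455 in Ubn1, 5652 in Setdb1, 4218 in Hira, 3573 in Pphln1, 2939 in Mphosph8 and 2201 in Asf1a, against a median of 3128 over all genes tested. Over all genes the log2 fold change was lower for long transcripts, with a rank correlation of -0.251 across 13842 genes, which are not independent replicates. The decile of genes with the longest transcripts (6473 bases and more) had a median of -0.14, with 74.1% of them lower in IL-4Rα-/- mice. The decile with the shortest transcripts had a median of 0.12, with 35.4% lower. Cabin1, Ubn2, Fam208a and Fam208b belong to the longest decile.

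This slope with length separated the libraries by genotype. In each library, the deviation of log2 CPM from the gene's mean over the 6 libraries was regressed on log2 transcript length. The slope was 0.031, 0.038 and 0.016 in IL-4Rα+/+ and -0.030, -0.053 and -0.0017 in IL-4Rα-/- libraries, without overlap. Slopes taken this way are relative among the libraries, and their sign does not give a trend of the levels themselves. Reads that STAR placed in no counted feature need not lie outside genes. Their share was also higher in each IL-4Rα+/+ library, at 10.9%, 11.7% and 10.3% against 9.12%, 8.87% and 9.68%. Genes of like length to Ubn2 numbered 59 and had a median log2 fold change of -0.26, with 79.7% lower in IL-4Rα-/- mice, and the 441 genes of like length to Fam208b had a median of -0.15. With the length trend removed from each library, the log2 fold change was -0.23 (SE 0.088) for Ubn2 and -0.34 (SE 0.072) for Fam208b, and Fam208a was at -0.20 (SE 0.16). Ubn1 was then at -0.049, Cabin1 at 0.032, Setdb1 at 0.13, Asf1a at 0.094, Hira at 0.050, Mphosph8 at -0.039 and Pphln1 at -0.018. Removing the trend with GC content instead left Ubn2 at -0.41 and Fam208b at -0.44. What sets the slope with length was not tested.

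**Figure D2:**
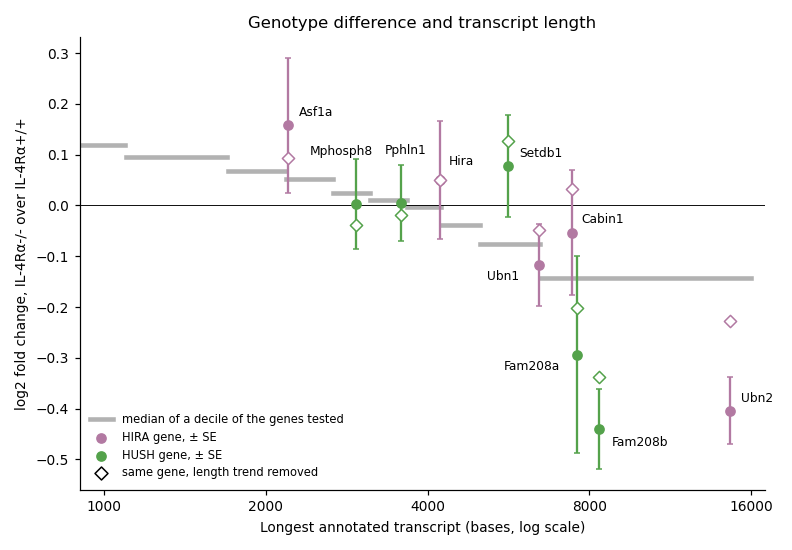
Log2 fold change (IL-4Rα-/- over IL-4Rα+/+, filled points, ± SE) of the HIRA (purple) and HUSH (green) genes against the length of their longest transcript on a log axis, with the value after removal of the length trend as open diamonds. Grey bars give the median of each decile of the genes tested, with the first and last bar clipped at the axis, and pass from 0.12 at the short end to -0.14 at the long end, where Ubn2 and Fam208b lie below them.

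The order of the levels among the 10 genes does not use the genotypes, and was tested. Per kilobase of exons, Ubn1 was first at 13.3 ± 0.92 CPM per kilobase (SD, n = 6 libraries), and Pphln1 (10.6 ± 0.48), Setdb1 (10.5 ± 0.88) and Mphosph8 (10.1 ± 0.63) followed closely. Cabin1 was at 8.65 ± 0.92, Ubn2 at 5.41 ± 0.84, Fam208a at 4.92 ± 1.06, Fam208b at 3.86 ± 0.67, Asf1a at 3.09 ± 0.31 and Hira at 2.00 ± 0.13 CPM per kilobase. The median over all genes tested was 5.09, so that Ubn1, at the 72.2nd percentile, and Hira, at the 32.7th, bounded a middle range. The 2 ubinucleins had similar read counts but differed per kilobase, since Ubn2 has more exonic bases.

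Neighbours in this order were compared over the 6 libraries with a two-sided exact sign-flip test, 9 pairs in all. Ubn1 was above Pphln1, Mphosph8 above Cabin1, Cabin1 above Ubn2 and Asf1a above Hira in 6 of 6 libraries, each at p = 0.0312 by the exact test, the smallest p that 6 libraries allow, and at an adjusted exact p of 0.0703 over the 9 pairs. Fam208a was above Fam208b, and Fam208b above Asf1a, in 5 of 6 libraries (exact p = 0.0625, adjusted 0.0938). Pphln1, Setdb1 and Mphosph8 did not differ beyond their spread (exact p = 0.75 and 0.562), nor did Ubn2 and Fam208a (exact p = 0.281). No pair passed an adjusted p of 0.05, which with 6 libraries needs at least 6 of the 9 pairs at the smallest p. Dividing the same reads by the unshared exonic bases only put Hira at 3.61 ± 0.227 CPM per kilobase, above Asf1a. Reads were not recounted, and this value holds only where reads on shared exons were left out. The place of the scaffold in the order thus depends on how its shared exons are treated. The first place depends on the length as well: per kilobase of the longest transcript Ubn1 led at 17.1, and per kilobase of the median transcript Cabin1 led at 149 and Ubn1 stood at rank 4 with 39.9 CPM per kilobase.

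**Figure D3:**
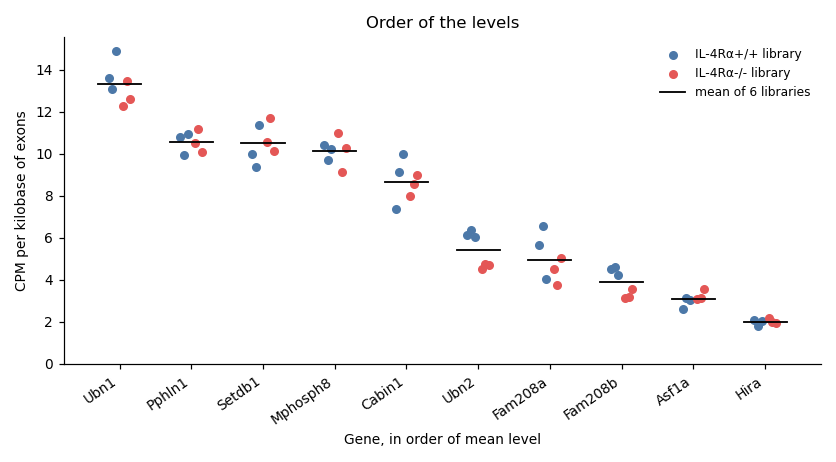
Level of each gene per kilobase of exons (CPM per kilobase, axis from 0) in the IL-4Rα+/+ (blue) and IL-4Rα-/- (red) libraries, in order of the mean over the 6 libraries (black line). Ubn1 leads at 13.3 and Hira is last at 2.00 on this length, and Pphln1, Setdb1 and Mphosph8 share a level of about 10.1 to 10.6.

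The 10 genes did not vary together as a unit, and pairs within 1 complex were not summarised apart. Over the 45 pairs of the 10 genes, Pearson's r across the 6 libraries had a median of -0.13 and ran from -0.98 to 0.97, values given as a description since the libraries share their genotype groups. Ubn2 and Fam208b, of different complexes, were at the top with r = 0.97, and this pair carries the genotype difference by which it was chosen. Fam208a and Setdb1, both of HUSH, were at the bottom with r = -0.98 over the 6 libraries and r = -0.99 after the mean of each genotype was removed. With genotype means removed Setdb1 varied with Ubn1 (r = 0.94) and Pphln1 (r = 0.90), and Fam208a varied against Ubn1 (r = -0.94). On this scale Hira varied against Ubn2 (r = -0.91), both of the HIRA complex. These are extremes picked from the 45 pairs, and how often pairs of other genes reach them was not counted.

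The variation of Fam208a between mice was set beside markers of monocyte subsets, a comparison added after the values were seen and given without a test. An index was taken as the mean log2 CPM of the Ly6C-low markers Cx3cr1, Nr4a1 and Adgre4 minus that of the Ly6C-high markers Ly6c2, Ccr2 and F13a1. It was 1.65, 0.49 and -0.86 in IL-4Rα+/+ and 0.33, -1.66 and -0.052 in IL-4Rα-/- libraries, so the index differed among mice of 1 genotype. No subset shares were measured in these libraries. By flow cytometry of spleens, the paper reports more Ly6C-low monocytes in IL-4Rα-/- mice and no significant difference in Ly6C-high ones. The index overlapped between the genotypes, with its highest value in an IL-4Rα+/+ and its lowest in an IL-4Rα-/- library. Over the 6 libraries, which share the genotype groups on which the genes were chosen, Pearson's r with the index was 0.80 for Fam208a (Spearman's rho 0.89) and -0.80 for Setdb1 (rho -0.89). Without the 2 libraries farthest from the median index r was 0.75 for Fam208a and -0.83 for Setdb1. Within the 3 libraries of each genotype r was 0.71 and 0.85 for Fam208a and -0.68 and -0.89 for Setdb1, in IL-4Rα+/+ and IL-4Rα-/- in turn. For Ubn2 (r = 0.41) and Fam208b (r = 0.53) the sign of r turned without the 2 farthest libraries, to -0.21 and -0.17. Over the 6 libraries r was -0.61 for Cabin1, 0.58 for Mphosph8, -0.50 for Asf1a, -0.45 for Pphln1, -0.29 for Ubn1 and 0.036 for Hira. Without the 2 farthest libraries r was -0.84 for Ubn1, -0.78 for Pphln1 and -0.73 for Cabin1. It was then -0.27 for Hira, 0.079 for Asf1a and -0.024 for Mphosph8. Within IL-4Rα+/+ and IL-4Rα-/- in turn r was -0.71 and -0.996 for Ubn1, -0.18 and -0.84 for Pphln1 and -0.96 and -0.27 for Cabin1. The sign of r thus held in each check for Ubn1, Pphln1 and Cabin1, as for Fam208a and Setdb1. How many of all genes reach the r of Fam208a or Setdb1 was not counted.

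**Figure D4:**
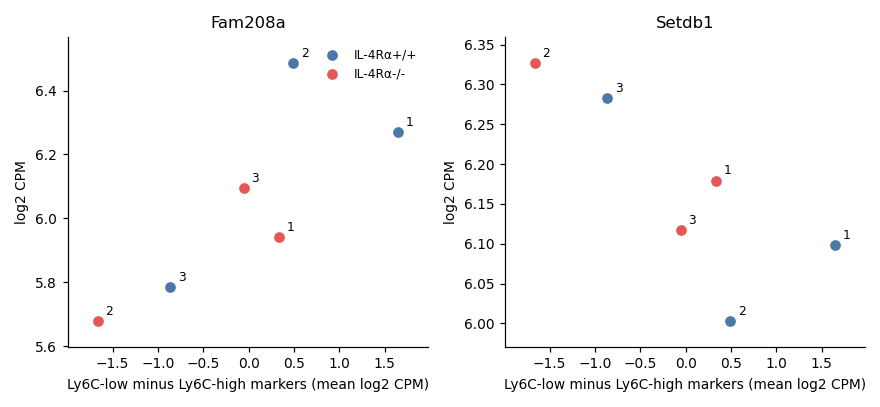
Log2 CPM of Fam208a and Setdb1 against the index of Ly6C-low minus Ly6C-high markers (difference of mean log2 CPM) in the 6 libraries, blue for IL-4Rα+/+ and red for IL-4Rα-/-, numbered by replicate. Libraries with a higher index tend to hold more Fam208a and less Setdb1, with r = 0.80 and -0.80, given as a description.

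Genes whose pattern over libraries was most like the mean of the 10 were sought among 8599 other genes with a mean of at least 10 CPM. Over the 6 libraries these were Zfp407 (r = 0.995), Trmt13 (r = 0.994), Vps13d (r = 0.989), Ercc6 (r = 0.987) and Synj1 (r = 0.984), and 206 candidates reached 0.9. In this order the 5 genes had log2 fold changes of -0.32, -0.27, -0.39, -0.31 and -0.20. Their longest transcripts were 7909, 3402, 15849, 8423 and 7090 bases. The mean of the 10 carries the genotype difference by which genes were chosen, so these r are a description. After the mean of each genotype was removed the nearest genes were BC048403 (r = 0.990), Tsr1 (r = 0.990), Dctn6 (r = 0.988), Adam19 (r = 0.987) and Ssbp2 (r = 0.980). The 2 sets of 5 have no gene in common, and the 99th percentile of r over all candidates was 0.935 over the 6 libraries and 0.904 after the genotype means were removed.

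The wider machinery was read from 7 lists of related genes that are not among the 10. Of 56 genes listed, 54 were tested: Morc2b and Atf7ip2 had too few reads. With edgeR 0 of the 54 passed an adjusted p of 0.15, DESeq2 called 0, and at an unadjusted p under 0.05 there were 3 lower and 3 higher genes in IL-4Rα-/- mice, beside 4.37% and 3.72% of all genes. The median log2 fold change over the 54 genes was -0.012, with 31 lower and 23 higher, beside 0.0084 over all genes. With the length trend removed 3 of the 54 genes were at an unadjusted p under 0.05, and without replicate 1 of IL-4Rα-/- there was 1.

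Chaperones that serve DNA replication were on the higher side, 10 of 11, with a median log2 fold change of 0.21, beside 0.0086 for genes of like length. The 3 of them at an unadjusted p under 0.05 were Chaf1a, a CAF-1 subunit (7.54 ± 2.67 against 12.5 ± 1.65 CPM, log2 fold change 0.73, SE 0.29), Asf1b, the proliferation-linked paralog of Asf1a (7.40 ± 1.87 against 11.5 ± 0.909 CPM, 0.64, SE 0.21), and Mcm2, a helicase subunit that holds histones (17.9 ± 2.32 against 24.8 ± 3.91 CPM, 0.47, SE 0.15). These means are over 3 libraries each with their SD, and none of the 3 passed the edgeR adjustment. Asf1b was thus the ASF1 form with the larger log2 fold change, beside 0.16 for Asf1a, and the difference between them was not tested.

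Among genes of H3.3 and the DAXX-ATRX chaperone, the other route of H3.3 into chromatin, the median was 0.084 (like-length genes 0.036), and Atrx was the lowest (234 ± 22.5 against 188 ± 7.08 CPM, log2 fold change -0.32, SE 0.091). All 5 HUSH partners tested were on the lower side, with a median of -0.12, beside a median of -0.084 for genes of like length, of which 46.6% to 79.7% were lower. Of these partners Atf7ip, which stabilises SETDB1, was the one at an unadjusted p under 0.05 (179 ± 5.44 against 155 ± 6.74 CPM, -0.21, SE 0.070). H3K9 demethylases were lower in 9 of 10, with a median of -0.11, beside a median of -0.061 for genes of like length, of which 44.5% to 81.6% were lower, and Kdm3b was at 249 ± 18.3 against 212 ± 11.9 CPM (-0.23, SE 0.086). Atrx, Atf7ip and Kdm3b did not pass the edgeR adjustment either. H3K9 methyltransferases and HP1 readers were lower in 7 of 9 (median -0.093, like-length genes -0.0051), DNA methylation genes in 3 of 5 (median -0.0024, like-length genes -0.080) and other histone chaperones in 4 of 9 (median 0.0084, like-length genes 0.014). Over all genes tested 48.5% were lower. The genes with the smallest p in these last lists were Ehmt1 (log2 fold change -0.14), Dnmt1 (0.18) and Supt6 (-0.14).

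**Figure D5:**
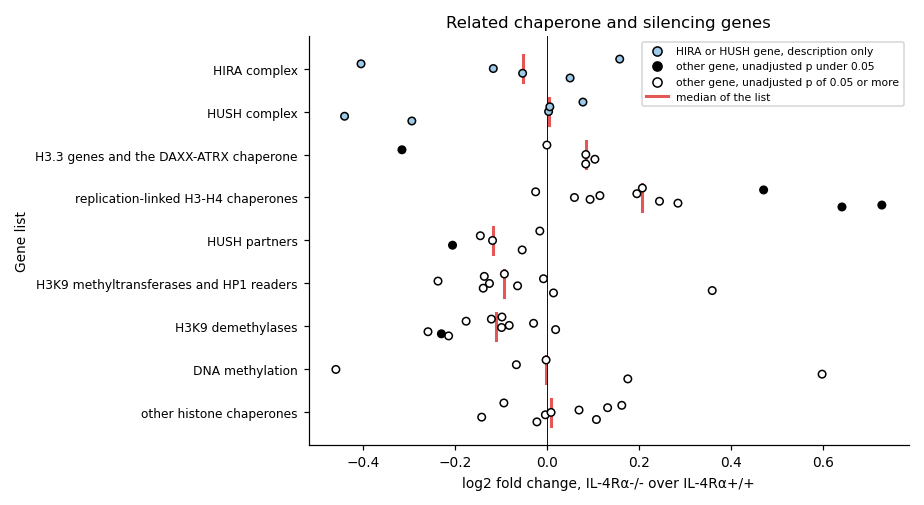
Log2 fold change (IL-4Rα-/- over IL-4Rα+/+) of each gene with enough reads, 1 row per list, with the list median in red. Blue points are the HIRA and HUSH genes, shown as a description, and black points are the 6 other genes at an unadjusted p under 0.05, none of which passed adjustment.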

How the data were processed

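Directional poly(A) libraries were made from splenic monocytes of 6 mice, 3 per genotype, and read from 1 end over 75 bp. Reads were aligned by the authors to GRCm38 with STAR 2.6.1a, and the authors deposited raw read counts per gene, 1 file per library, with STAR's summary lines, which were kept out of library sizes. The submitters' processing notes also name bcl2fastq 2.19.1.403, RSEM and DESeq2 1.22.2. Of 55421 gene IDs, 55240 were found in GENCODE vM21 (GRCm38), which supplied symbols, lengths and exons and is not the release the authors counted with. More than 10 reads over the 6 libraries were present on 63 of 477 genes that lie wholly inside exons of the opposite strand, so counting used strand.

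Counts were analysed here with edgeR 4.0.16 in R 4.3.3 (TMM, filterByExpr with a minimum count of 10, quasi-likelihood test, Benjamini-Hochberg adjustment, threshold 0.15 as in the study). The 26807281 to 29033297 reads on genes per library set the counting error, which was 6.10% for the lowest count of the 10 genes (Asf1a). CPM were scaled by TMM, and log2 CPM used a prior count of 2. Alternatives were DESeq2 1.42.0, other scalings and filters, loess trends (span 0.5) with transcript length or GC content removed, Xist as a covariate, the replicate block and leaving out libraries. The fit was tested on simulated counts: of 200 genes given a log2 fold change of 2, edgeR called 91.0% with 51 others, over 13609 genes, and DESeq2 92.5% with 126 others, over 13843 genes. The others were genes given no change. A log2 fold change of 2 is larger than any fitted for the 10 genes, so these rates do not apply to changes of their size. No 2 libraries of the same genotype agreed within sampling noise. Deviations of same-numbered libraries of the genotypes correlated at 0.18, -0.27 and -0.30, and the main fit did not pair libraries by replicate number.

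The 10 genes and the lists were chosen with earlier results of these data known. Besides the 10 genes and Il4ra, the genes named were those at an unadjusted p under 0.05 in each list, or the one with the smallest p, and the 5 nearest in pattern on each scale. Promoter windows came from RefSeq (GRCm38.p6), and all 10 genes matched. Exact tests used scipy 1.17.1.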

Additional observations from a re-analysis of the deposited data

Results flagged for a closer look

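Reads outside the gene counts differed between the genotypes. The share of reads that mapped to several places was higher in each IL-4Rα-/- library, the lowest of them at 9.02% and the highest IL-4Rα+/+ library at 8.86%. The share of reads that fell on more than 1 gene was likewise higher in each IL-4Rα-/- library, with the lowest at 1.4408% and the highest IL-4Rα+/+ library at 1.4403%, a narrow gap. These reads are in no gene count, and the shares are given as values only.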

How the results depend on the processing

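The count of 0 genes called with edgeR held under 16 of 17 alternatives, an adjusted p under 0.05 among them, and was 80 with DESeq2. The 1120 genes at an unadjusted p under 0.05 became 627 to 1724 when 1 library was left out, with 627 without replicate 2 and 1724 without replicate 3 of IL-4Rα+/+ and 638 without replicate 1 of IL-4Rα-/-, and 711 over the 4 libraries low in Xist, an alternative added after the data were seen. The 5 HIRA and HUSH genes with a lower fitted value became 4 to 8, with 8 without replicate 2 of IL-4Rα+/+. The 6 related genes at an unadjusted p under 0.05 became 3 with the length trend removed and 1 to 8 when 1 library was left out, with 1 without replicate 1 of IL-4Rα-/-. The HIRA median log2 fold change of -0.053 became 0.032 with the length trend removed, -0.12 over the libraries low in Xist and -0.13 to 0.046 when 1 library was left out, without replicate 1 and replicate 3 of IL-4Rα+/+ in turn. The HUSH median of 0.0031 ran from -0.064 to 0.021 when 1 library was left out, lowest without replicate 1 of IL-4Rα-/-, and changed sign under 8 of 16 alternatives. Ubn2 and Fam208b kept a negative log2 fold change under all 16 alternatives, from -0.42 to -0.23 and from -0.50 to -0.34, with both values nearest 0 under removal of the length trend. The alternatives refit the same libraries in which both genes were chosen, so the kept sign adds no support. The order of levels per kilobase moved with the length used, and under each of 3 other lengths 0 of 9 neighbours passed an adjusted p of 0.05. The cause of these shifts was not tested. With replicate number as a block, 0 genes were called, 765 had an unadjusted p under 0.05, and Ubn2 and Fam208b were at -0.40 and -0.44. Deviations of same-numbered libraries correlated at 0.18, -0.27 and -0.30. Libraries of different numbers were not compared, so these values neither show nor exclude a pairing by number. With 3 mice per genotype, a fitted difference is known only to about its SE, 0.066 to 0.19 on the log2 scale for the 10 genes. Hira and Asf1a rest on 269 to 384 reads per library.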
